A study of Homo sapiens with 6 samples.

Results

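The genes described here are the transcriptional co-activators YAP1 and WWTR1 (also called TAZ), the DNA-binding factors TEAD1 and TEAD4, the kinase LATS2, the adaptor proteins AJUBA and AMOTL2, and the target genes CTGF, CYR61 and ANKRD1. They were chosen by name, CTGF and CYR61 under their older symbols, and all 10 were found among the 17222 gene names of the count table. YAP1 and WWTR1 do not bind DNA themselves and act on genes through TEAD factors. The Hippo kinase cascade, whose last step is the LATS kinases, phosphorylates both co-activators and keeps them out of the nucleus. Several genes that YAP1 and WWTR1 switch on, LATS2 and AMOTL2 among them, act back on the cascade, and CTGF, CYR61 and ANKRD1 are commonly read as their output.

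H226 is an established human cell line that the labels describe as squamous lung carcinoma. The cells were transiently transfected with a control antisense oligonucleotide (ASO_CTRL) or with ASO_LINC#3 (ASO_LINC below), a single oligonucleotide directed against the long noncoding RNA *SWINGN* (LINC00565), and were collected after 48 h, with 3 libraries per condition. The comparison asks how the transcriptome changes when *SWINGN*, studied as an RNA partner of the SWI/SNF chromatin remodelling complex, is depleted. The level of *SWINGN* itself was not analysed here, and with a single targeting oligonucleotide its effect cannot be told apart from other effects of its sequence. The labels and the results text of the study name H226 for this RNA-seq, and a methods sentence that names BJ cells was set aside.

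TEAD factors recognise a short core, GGAATG, and the promoters of the best-known targets hold it. The RefSeq promoter windows (GRCh38.p14), which run from 250 bases before to 50 bases after an annotated start, were searched for GGAATG on both strands. Windows were matched for 7 of the 10 genes, and 6 of these 7 held the core (85.7%), whereas 16.7% of the 27305 genes with a window did. The 250 bases before the start of CTGF and of ANKRD1 are shown because CTGF has the most copies of the core, and ANKRD1 the largest change in expression. Both genes lie on the minus strand, and capitals mark the core. The CTGF stretch is chr6:131951373-131951622 and that of ANKRD1 is chr10:90921088-90921337.
CTGF: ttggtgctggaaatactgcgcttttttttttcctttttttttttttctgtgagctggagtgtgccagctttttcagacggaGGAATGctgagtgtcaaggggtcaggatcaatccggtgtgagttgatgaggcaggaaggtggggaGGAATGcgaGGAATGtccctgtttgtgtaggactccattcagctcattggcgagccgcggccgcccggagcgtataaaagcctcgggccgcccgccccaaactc
ANKRD1: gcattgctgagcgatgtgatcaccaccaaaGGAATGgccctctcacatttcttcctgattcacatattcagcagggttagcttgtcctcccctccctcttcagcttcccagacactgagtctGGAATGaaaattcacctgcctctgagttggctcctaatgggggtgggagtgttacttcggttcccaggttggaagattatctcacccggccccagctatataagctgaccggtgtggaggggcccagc

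The 3 copies of CTGF begin at −169, −104 and −95 from the start, and 45 of all 35116 windows (0.128%) held 3 or more. The ANKRD1 window held 2 copies, at −220 and −128. It also held the AP-1 motif TGANTCA, at −195, which was found in 7.7% of all windows and in no window of the other 6 genes. YAP1 had a core at −162, AJUBA at −59 of its second start, AMOTL2 at −69 of its second start on the opposite strand, and LATS2 at position 10 after its start. Neither window of WWTR1 held it. No window was matched for TEAD1, TEAD4 and CYR61. These matches describe letters in short windows and say nothing about binding in H226 cells.

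**Figure D1:**
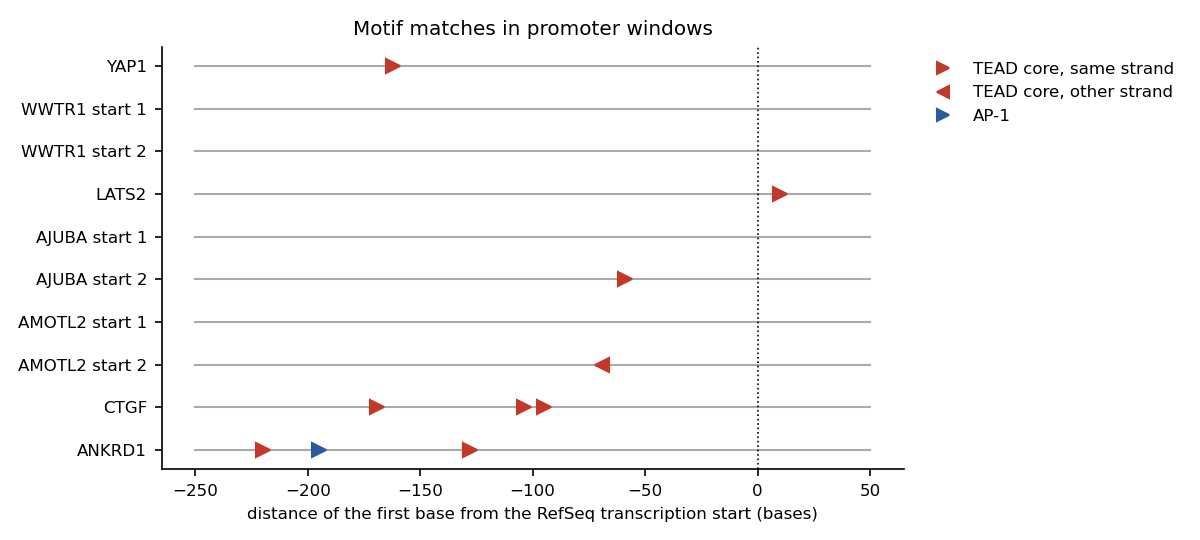
Matches to the TEAD core (red) and the AP-1 motif (blue) in the RefSeq promoter windows of 7 genes, by distance in bases from the annotated start. CTGF holds 3 cores and ANKRD1 holds 2 cores and the AP-1 motif.

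Reads counted on genes ranged from 3686828 to 10546786 per library. ASO_LINC replicate 3 had the fewest. Within a condition, chi-square values of the counts per degree of freedom were 2.50 for ASO_LINC replicates 1 and 2, 13.02 and 14.0 for ASO_LINC replicate 3 against them, and 6.94, 8.25 and 11.9 among the ASO_CTRL libraries. ASO_LINC replicates 1 and 2 had the lowest value, and the values of replicate 3 were above those among the controls. For the same relative spread this value grows with read depth, and replicate 3 had the fewest reads. The values are therefore not directly comparable between libraries. Values without ASO_LINC replicate 3 are given below where a call changed without it. Levels in the following are CPM, read counts relative to the library total scaled by the TMM method of edgeR. Mitochondrially encoded genes took from 3.01% to 3.45% of the counts in the ASO_CTRL libraries and from 1.85% to 2.01% in the ASO_LINC libraries, and the part of this difference in the results was not tested. Of 8 squamous markers, KRT5 and DSC3 were measured at 103 and 42.5 CPM in ASO_CTRL and KRT6A was near 0, at 0.03 CPM, while 5 were not analysed here. DSC3 was lower in ASO_LINC, at 23.0 CPM (edgeR adjusted p = 0.00571). KRT5 was at 69.0 CPM in ASO_LINC, below the controls in all 3 libraries, and missed the threshold (adjusted p = 0.0192). The summed level of the simple epithelial keratins KRT7, KRT8, KRT18 and KRT19 was from 11696 to 12642 CPM in ASO_CTRL and from 7103 to 12434 CPM in ASO_LINC, and none of the 4 passed the test. In ASO_LINC replicates 1 and 2 each of the 4 lay below every control, whereas in replicate 3 each lay within the control range or just above it, as for KRT18 at 2924, 2881 and 5260 CPM. The fibroblast markers COL3A1 and TWIST2 summed to between 11.2 and 12.6 CPM in ASO_CTRL and between 4.07 and 5.29 CPM in ASO_LINC, COL3A1 being lower in ASO_LINC (adjusted p = 0.00261). The part of these markers in the results was not tested.

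WWTR1 and ANKRD1 were higher after *SWINGN* knockdown, and the other 8 genes did not pass the test. WWTR1 rose 1.84-fold and ANKRD1 2.80-fold. LATS2, at 1.87-fold, and CYR61, at 1.34-fold, did not overlap between conditions and missed the adjusted p-value. In bulk libraries a change in the share of cells that express a gene and a change in RNA per cell cannot be told apart. YAP1, TEAD1, TEAD4, AMOTL2 and CTGF had overlapping conditions, and AJUBA was slightly lower in every knockdown library than in every control library. A gene was called when edgeR's quasi-likelihood test gave an adjusted p-value below 0.01 (Benjamini-Hochberg over all 14660 tested genes) and the change exceeded 0.5 on the log2 scale. By this rule 7.54% of all tested genes were called, 4.91% being called higher, against 2 of the 10 genes, both higher. The 10 genes were chosen with earlier results of these data known, so such shares are not a test of the set. The labels do not say whether the libraries came from separate cultures. The study's reporting summary gives biological triplicates as the default for its experiments, without naming this RNA-seq. The p-values measure the spread between these libraries. For 5 of the 10 genes all knockdown libraries lay on the same side of all controls (4 higher and 1 lower), and the same was true of 36.1% of all tested genes (18.7% higher and 17.3% lower). At an adjusted p-value below 0.05 with the same bound 3 of the 10 genes were called, against 16.8% of all tested genes. The median log2 fold change of the 10 genes was 0.21 and that of all tested genes was 0.00.

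**Figure D2:**
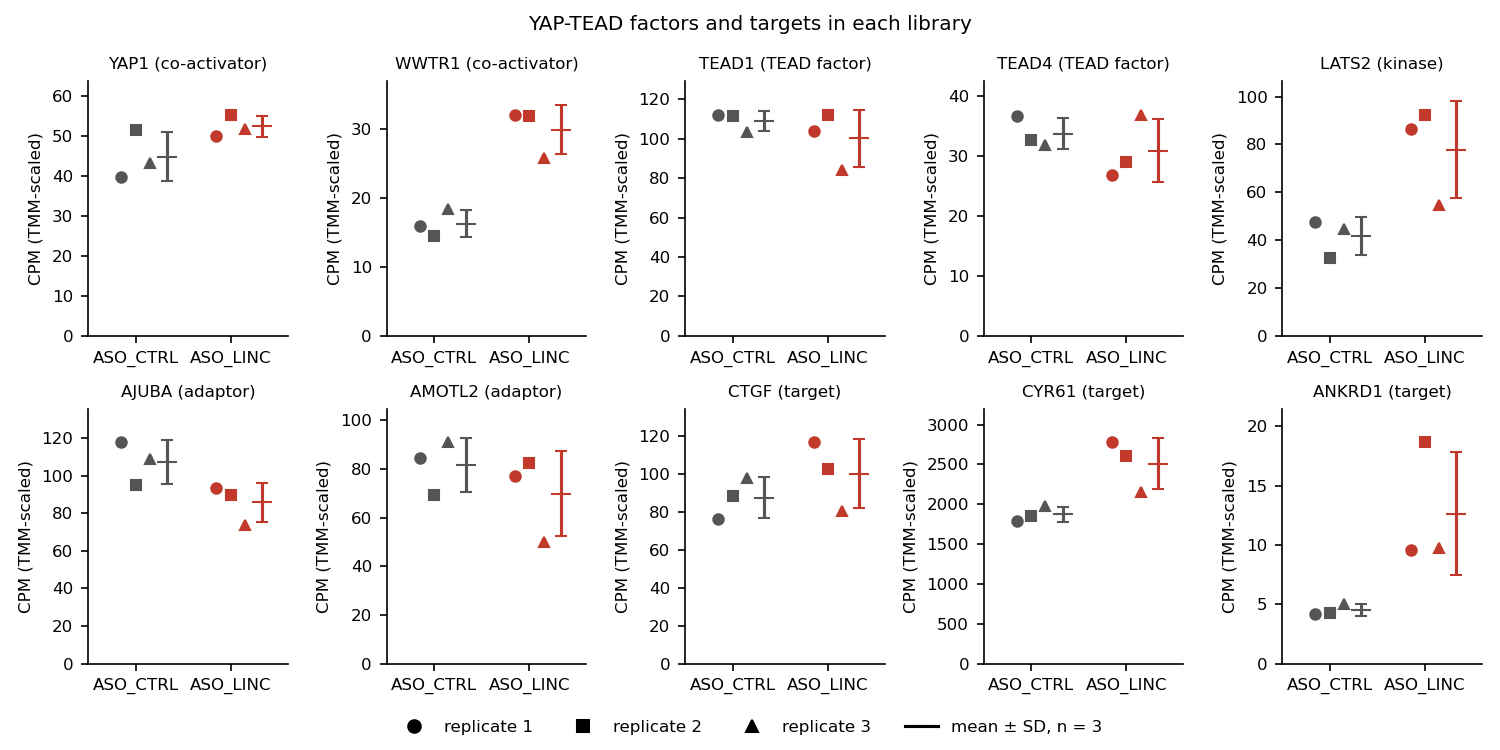
CPM of the 10 genes in each library of ASO_CTRL (grey) and ASO_LINC (red), with a linear axis from 0 in each panel and mean ± SD (n = 3) beside the points. The conditions separate for WWTR1, LATS2, CYR61 and ANKRD1, which are higher in ASO_LINC, and for AJUBA, which is lower.

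Of the co-activators only WWTR1 passed the test, and the difference between them is given below as a ratio. WWTR1 (GRCh37, chromosome 3, 149235022 to 149454501, minus strand) was at 15.9, 14.5 and 18.4 CPM in ASO_CTRL replicates 1, 2 and 3 and at 32.0, 31.8 and 25.8 CPM in ASO_LINC replicates 1, 2 and 3. Every knockdown library lay above every control library, with replicate 3 the lowest of them. This was a rise of 0.88 on the log2 scale, with a standard error of 0.17 (adjusted p = 0.00569). The call was kept without ASO_LINC replicate 3 (adjusted p = 0.000543) and lost when any other library was left out, with adjusted p-values from 0.0206 to 0.0333 and log2 fold changes from 0.81 to 0.98. It was also lost when edgeR tested against a log2 fold change of 0.5 (glmTreat, adjusted p = 0.0904), as was that of ANKRD1 (0.0315). WWTR1 shares 756 exonic bases with WWTR1-AS1 on the opposite strand, and the strand setting of the counting is not given in the sources used here, so reads of these genes cannot be told apart.

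YAP1, on chromosome 11 from 101981178 to 102104155, was at 39.6, 51.5 and 43.2 CPM in ASO_CTRL and at 49.97, 55.3 and 51.8 CPM in ASO_LINC. The control library of replicate 2 lay within the range of the knockdown libraries. Its change was 0.23 on the log2 scale with a 95% confidence interval from −0.09 to 0.55 (adjusted p = 0.303). YAP1 shares 628 exonic bases with an unnamed antisense RNA.

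A ratio of reads within a library does not depend on how libraries are scaled. WWTR1 made up 28.6%, 21.9% and 29.9% of the reads of the pair WWTR1 and YAP1 in ASO_CTRL, and 39.1%, 36.5% and 33.2% in ASO_LINC. The knockdown libraries lay above all control libraries. The WWTR1 to YAP1 ratio was 1.56-fold higher in ASO_LINC, with a difference of 0.64 on the log2 scale (two-sided exact permutation p = 0.1, which is as low as 3 against 3 libraries can give), and the difference stayed between 0.46 and 0.76 when each library was left out.

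Neither TEAD factor passed the test. TEAD1, on chromosome 11 from 12695968 to 12966284, was at 112, 112 and 103 CPM in ASO_CTRL and at 104, 112 and 84.0 CPM in ASO_LINC. Its log2 fold change was −0.12, with a confidence interval from −0.43 to 0.19 (adjusted p = 0.600). TEAD4, on chromosome 12 from 3068496 to 3149842, was at 36.6, 32.7 and 31.8 CPM in ASO_CTRL and at 26.9, 28.9 and 36.9 CPM in ASO_LINC. The first 2 knockdown libraries of TEAD4 lay below all controls and replicate 3 above them. Its log2 fold change was −0.14, with a confidence interval from −0.49 to 0.22 (adjusted p = 0.599), and without replicate 3 it was −0.27 (adjusted p = 0.131).

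The TEAD4 share of the reads of the TEAD4 and TEAD1 pair was from 22.6% to 24.6% in ASO_CTRL. In ASO_LINC it was 20.5%, 20.5% and 30.5% in replicates 1, 2 and 3, so that replicate 3 and the other knockdown libraries fell on opposite sides of the controls. The difference of the mean log2 ratio was 0.00 (exact permutation p = 1), with values on both sides of 0 when each library was left out.

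**Figure D3:**
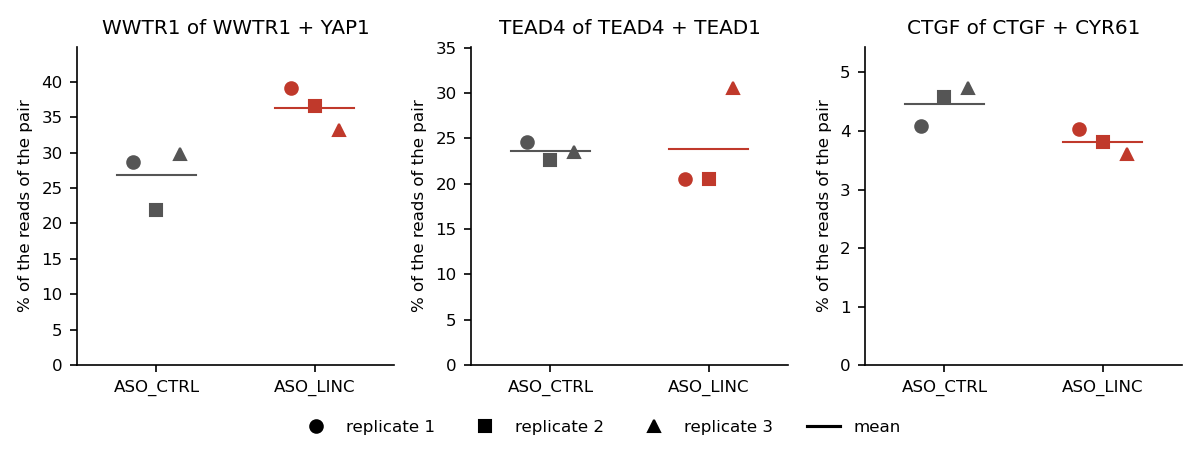
Share of the first gene in the reads of a pair of related genes, in percent, for each library of ASO_CTRL (grey) and ASO_LINC (red), with the mean as a line. The WWTR1 share is higher and the CTGF share lower in every ASO_LINC library than in every ASO_CTRL library, and the TEAD4 shares overlap.

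LATS2, the kinase that inactivates YAP1 and WWTR1, lies on the minus strand of chromosome 13 from 21547175 to 21635725. It was at 47.7, 32.7 and 44.5 CPM in ASO_CTRL and at 86.6, 92.4 and 54.5 CPM in ASO_LINC. The conditions did not overlap, but ASO_LINC replicate 3 lay closer to the controls than to the other knockdown libraries. The difference was 0.91 on the log2 scale, with a standard error of 0.21 (adjusted p = 0.0146), not past the adjusted p-value of 0.01. Without ASO_LINC replicate 3 LATS2 was called, at 1.10 (adjusted p = 0.000248), and DESeq2 called it with all libraries (adjusted p = 0.00108), calling 3 of the 10 genes and 9.61% of the genes it tested.

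AJUBA, a LIM domain protein that binds and restrains the LATS kinases, was at 118, 94.99 and 109 CPM in ASO_CTRL and at 93.6, 89.8 and 74.0 CPM in ASO_LINC. The conditions were separated by a narrow gap, between 93.6 and 94.99 CPM. Its log2 fold change was −0.32, with a confidence interval from −0.64 to −0.002 (adjusted p = 0.152). The gene lies on the minus strand of chromosome 14 from 23440386 to 23451760. It shares 50 exonic bases with an unnamed protein-coding gene on the same strand.

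AMOTL2, an angiomotin-like protein that holds YAP1 at cell junctions, lies on the minus strand of chromosome 3 from 134074189 to 134094321. It was at 84.6, 69.2 and 90.9 CPM in ASO_CTRL and at 77.2, 82.5 and 49.9 CPM in ASO_LINC. The lowest value was that of ASO_LINC replicate 3, and the conditions overlapped. The difference was −0.22 on the log2 scale (adjusted p = 0.466) and became −0.04 (adjusted p = 0.857) without that library. AMOTL2 shares 187 exonic bases with the pseudogene RPL39P5 on the same strand.

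ANKRD1, a nuclear and sarcomeric ankyrin repeat protein, was the most changed of the 10 genes and the one with the fewest reads. It had 31, 25 and 53 reads in ASO_CTRL and 65, 109 and 36 reads in ASO_LINC, which corresponded to 4.18, 4.30 and 5.06 CPM and to 9.55, 18.7 and 9.76 CPM. All knockdown libraries were above all control libraries, and replicate 2 was well above the other knockdown libraries. The rise was 1.48 on the log2 scale, with a standard error of 0.29 (adjusted p = 0.00636). The call was lost when any ASO_CTRL library (adjusted p from 0.0267 to 0.0286) or ASO_LINC replicate 2 (0.0209) was left out. It was kept without ASO_LINC replicate 1 (0.00972) or 3 (0.00133), and the log2 fold change stayed between 1.08 and 1.67. ANKRD1 lies on the minus strand of chromosome 10 from 92671853 to 92680844.

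CYR61 and CTGF encode secreted proteins of the same matricellular family. CYR61, on chromosome 1 from 86046444 to 86050272, was by far the most read of the 10 genes, at 1791, 1848 and 1977 CPM in ASO_CTRL and 2777, 2601 and 2157 CPM in ASO_LINC. The knockdown libraries were all above the controls. Its log2 fold change was 0.42 (standard error 0.12, confidence interval from 0.15 to 0.70, adjusted p = 0.0392), past neither threshold. Without ASO_LINC replicate 3 it was 0.52 and was called (adjusted p = 0.00170).

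CTGF, on the minus strand of chromosome 6 from 132269316 to 132272512, was at 76.2, 88.8 and 98.1 CPM in ASO_CTRL and at 117, 103 and 80.8 CPM in ASO_LINC. Replicates 1 and 2 of the knockdown lay above the controls and replicate 3 lay among them. On the log2 scale the difference was 0.20, with a confidence interval from −0.16 to 0.56 (adjusted p = 0.440), and without ASO_LINC replicate 3 it was 0.33 (adjusted p = 0.0685). A link between the TEAD cores in a promoter and the change in expression was not tested. CTGF shares 278 exonic bases with LINC01013 on the opposite strand.

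Within libraries CTGF made up 4.08%, 4.58% and 4.73% of the reads of the CTGF and CYR61 pair in ASO_CTRL and 4.04%, 3.81% and 3.61% in ASO_LINC. The conditions did not overlap, the nearest libraries being those of replicate 1. The difference of the log2 CTGF to CYR61 ratio was −0.23 (two-sided exact permutation p = 0.1, which is as low as 3 against 3 libraries can give).

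Without ASO_LINC replicate 3, 4 of the 10 genes were called, WWTR1, LATS2, CYR61 and ANKRD1, all higher, where 17.2% of all tested genes were called and 9.42% were called higher. When each of the other libraries was left out, none or 1 of the 10 genes was called, the 1 being ANKRD1 without ASO_LINC replicate 1. The share of all tested genes called was then 3.32% without ASO_CTRL replicate 1, 3.32% without 2 and 2.42% without 3, and 2.87% without ASO_LINC replicate 1 and 3.5% without 2. With all libraries 5 of the 10 genes had an unadjusted p-value below 0.05, as had 32.4% of all tested genes.

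**Figure D4:**
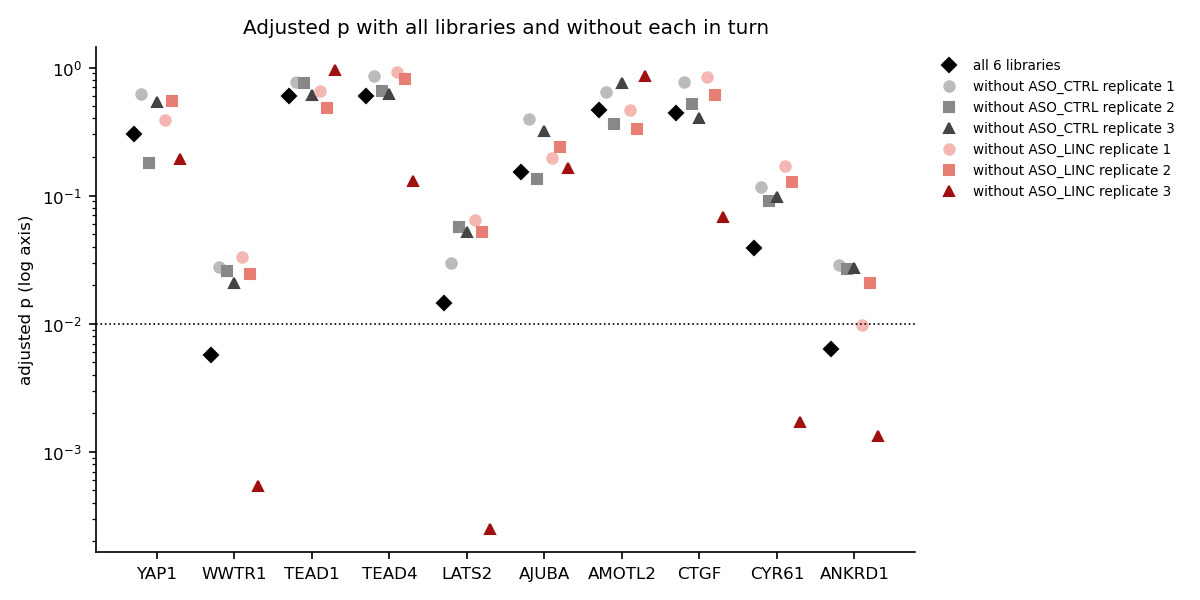
Adjusted p-value of each of the 10 genes (log axis) from edgeR with all 6 libraries and without each library in turn, with the threshold of 0.01 as a dotted line. Without ASO_LINC replicate 3 (dark red triangles) WWTR1, LATS2, CYR61 and ANKRD1 lie below the line.

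Levels were compared between genes as CPM per kilobase of the annotated canonical transcript. The libraries were primed with dT oligos, and reads may gather near transcript ends, so the order is approximate. In ASO_CTRL, CYR61 stood at 822 ± 41.7 CPM per kilobase (SD, n = 3) and the next gene, CTGF, at 37.5 ± 4.69. AJUBA followed at 25.7 ± 2.75, TEAD4 at 19.7 ± 1.51, AMOTL2 at 16.8 ± 2.30, TEAD1 at 11.6 ± 0.52, YAP1 at 8.29 ± 1.12 and LATS2 at 7.50 ± 1.42 CPM per kilobase. The lowest were WWTR1, at 3.23 ± 0.40, and ANKRD1, at 2.52 ± 0.27 CPM per kilobase. The ranges of the control libraries overlapped for the neighbours TEAD4 and AMOTL2 and for YAP1 and LATS2, and no other neighbours overlapped. In ASO_LINC, LATS2 moved from place 8 to place 6, at 14.0 ± 3.68 CPM per kilobase. Its range there, 9.83 to 16.7, overlapped those of TEAD1 (8.92 to 11.9) and YAP1 (9.25 to 10.2). ANKRD1, at 7.07 ± 2.90, moved above WWTR1, at 5.93 ± 0.71, where their ranges overlapped.

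Other genes of the Hippo pathway were taken from a list of 23 upstream kinases, scaffolds and TEAD partners, of which 21 were tested and 2 (NF2 and AMOT) were not analysed here. Of the 21 genes, 3 passed the test, 2 higher and 1 lower, where 7.54% of all tested genes were called and 4.91% were called higher. This list too was chosen with earlier results known, so the shares are not a test of it. The median log2 fold change of the 21 genes was 0.24. TAOK3, a kinase upstream of the cascade, rose from 35.8 ± 4.48 to 71.8 ± 10.2 CPM (mean ± SD, 3 libraries per condition), which is 1.007 on the log2 scale with a standard error of 0.16 (edgeR adjusted p = 0.00187). STK4, the Hippo kinase also called MST1, rose from 57.1 ± 6.62 to 96.7 ± 8.34 CPM, by 0.76 on the log2 scale (standard error 0.14, adjusted p = 0.00483). Its partner kinase STK3 was at a log2 fold change of −0.15 (adjusted p = 0.560). VGLL3, a vestigial-like cofactor that binds TEAD proteins in place of YAP1, fell from 40.3 ± 7.23 to 14.3 ± 1.86 CPM, or by 1.47 on the log2 scale with a standard error of 0.18 (adjusted p = 0.000499). VGLL3 stayed past both thresholds without each library, while STK4 kept it in 1 and TAOK3 in 3 of these 6 fits.

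Some list genes are paralogues of the 10, and these were chosen for naming after their values were seen. LATS1 was at 28.0, 41.0 and 38.0 CPM in ASO_CTRL and at 61.6, 61.6 and 41.8 CPM in ASO_LINC. Its log2 fold change was 0.63 (adjusted p = 0.0447), and like LATS2 it was called without ASO_LINC replicate 3 (adjusted p = 0.00223). AMOTL1, unlike AMOTL2, had a positive log2 fold change, 1.40 (adjusted p = 0.0120), at 1.52 ± 0.27 CPM in ASO_CTRL and 4.14 ± 0.94 CPM in ASO_LINC. This rests on few reads, 9, 10 and 17 in ASO_CTRL and 21, 26 and 18 in ASO_LINC. TEAD2 and TEAD3 were at −0.29 and 0.05 on the log2 scale (adjusted p = 0.474 and 0.877), and TEAD3 turned to −0.04 without ASO_LINC replicate 3. LIMD1 and WTIP, relatives of AJUBA, went in opposite directions, at 0.85 and −0.62 (adjusted p = 0.0144 and 0.0381), and neither was called.

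Further targets of YAP1 and WWTR1 came from a list of 16 genes that target signatures share, of which 15 were tested and TGFB2, near 1 CPM, was below the filter on low counts. Of the 15 genes, 5 were called higher and 2 lower, where 7.54% of all tested genes were called and 4.91% were called higher. The list was chosen with earlier results of these data known, so these shares are not a test of the list. The median log2 fold change of the 15 genes was 0.11. The highest was F3, tissue factor, the initiator of blood coagulation, at 208, 188 and 206 CPM in ASO_CTRL and 796, 803 and 628 CPM in ASO_LINC (log2 fold change 1.89, standard error 0.14, adjusted p = 1.97e-05). GADD45A, a stress-response protein that p53 and ATF4 also control, rose from 548 ± 74.3 to 1587 ± 293 CPM, by 1.54 on the log2 scale (adjusted p = 0.000190). NT5E, an ectonucleotidase that makes adenosine, rose by 1.28 (adjusted p = 0.00133) and IGFBP3, which binds insulin-like growth factors, by 0.98 (adjusted p = 0.000318). MYOF, a ferlin of the plasma membrane, rose by 0.71 (adjusted p = 0.00709).

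In the other direction, CCDC80, a secreted matrix protein, fell from 2002 ± 178 to 1115 ± 154 CPM, or by 0.85 on the log2 scale with a standard error of 0.13 (adjusted p = 0.00202). ARHGEF17 fell from 39.5 ± 3.75 to 22.7 ± 3.10 CPM, or by 0.81 on the log2 scale with a standard error of 0.16 (adjusted p = 0.00611). F3, GADD45A and IGFBP3 kept their calls in all 6 fits that left out 1 library. NT5E kept it in 4, CCDC80 in 2, and MYOF and ARHGEF17 in 1 of the 6 fits, that without ASO_LINC replicate 3. The TEAD core was found in 36.4% of the 11 list genes with a promoter window, AXL, FOXF2, NUAK2 and TGFB2. Of these TGFB2 was not tested, and AXL, FOXF2 and NUAK2 were not called. F3 had a window that held the AP-1 motif and no TEAD core. The genes of the list of 16 beyond these 11 had no window. Among the 21 Hippo genes with a window the core was found in 19.0%.

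**Figure D5:**
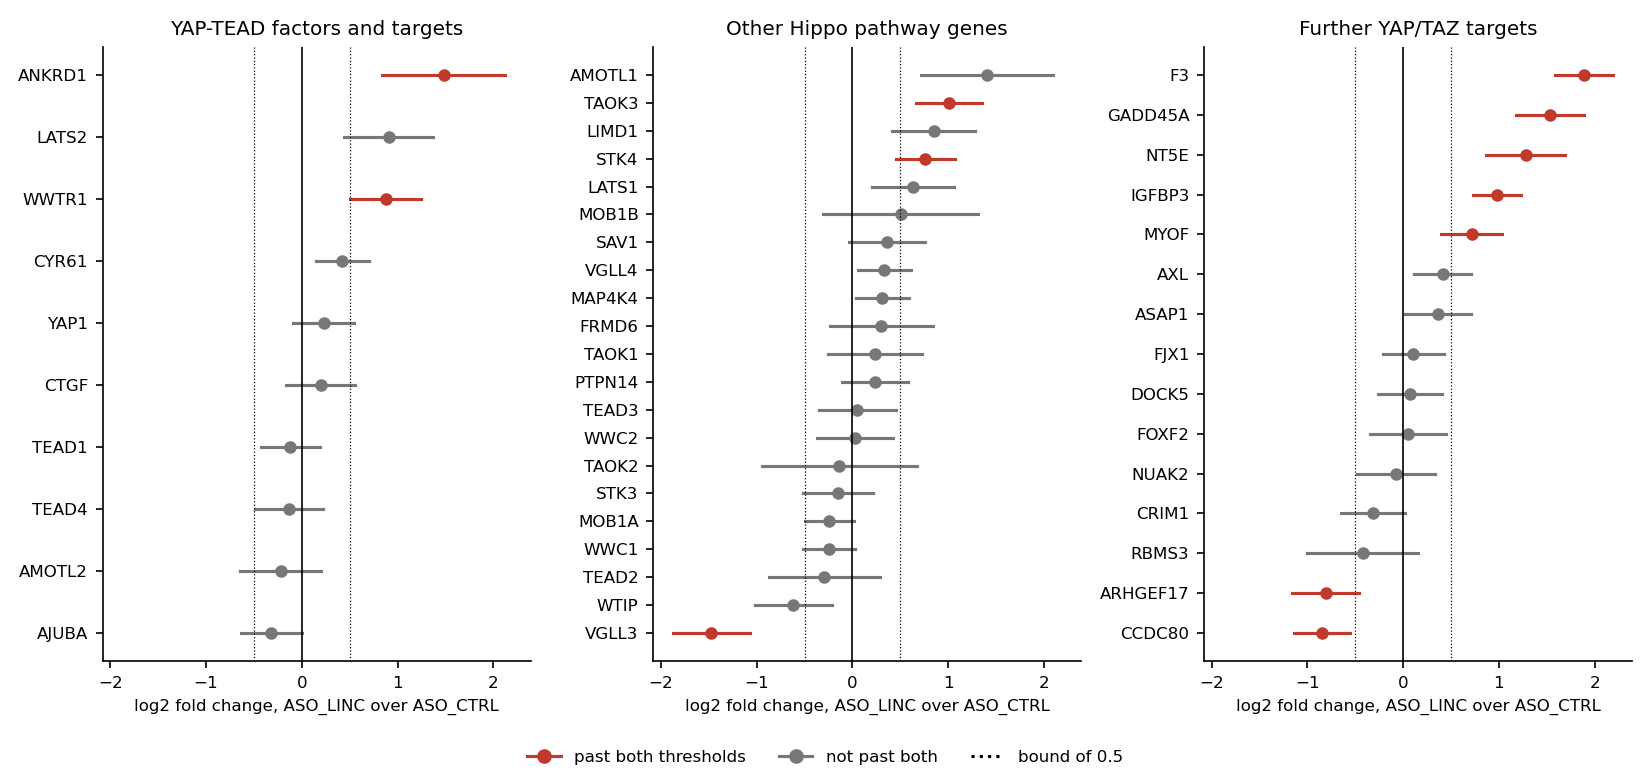
Log2 fold change of ASO_LINC over ASO_CTRL with its 95% confidence interval from edgeR for the 10 genes, 21 other Hippo pathway genes and 15 further targets. Red marks genes past both thresholds, grey the others, and dotted lines the bound of 0.5. Called genes lie on both sides of 0 in the 2 lists and on the positive side among the 10 genes.

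The genes whose log2 CPM followed a target most closely over the 6 libraries were looked up among 10220 genes that averaged 50 counts or more. The 6 points share 2 conditions and their depth, so these values describe likeness of pattern. For CYR61 they were LIMD1, an Ajuba family protein of the Hippo list, and PCGF3 (Pearson r = 0.996 and 0.995), and 312 genes had an r above 0.95. For CTGF they were FANCL and TXLNG (r = 0.994 and 0.989), and for ANKRD1 CSNK1G3 and C1orf43 (r = 0.997 and 0.995). Above 0.95 were 34 genes for CTGF and 93 for ANKRD1. FANCL and TXLNG were at log2 fold changes of 0.32 and 0.27 (edgeR adjusted p = 0.385 and 0.446). CSNK1G3 and C1orf43 were at 0.71 and 0.07 (0.0441 and 0.699). LIMD1 had a log2 fold change of 0.85 and was not past the adjusted p-value (0.0144).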

How the data were processed

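Per the labels, STAR was the aligner and hg19 the build. The deposited table holds raw counts of single-end reads, 1 column per library and 1 line per gene name, not normalized. Which program counted the reads, on which gene models and with what strand setting, is not given in the sources used here. Conditions and replicate numbers came from the sample titles. The 4 rows of reads assigned to no gene (24.8% to 28.1% of a library's total) were left out. Counts of libraries of 1 condition differed by more than sampling noise. Each was taken as 1 replicate, although this does not show that they came from separate cultures.

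The test between conditions was that of edgeR 4.0.16, run in R 4.3.3 (filterByExpr, 14660 genes; TMM; quasi-likelihood F-test without a block), at the thresholds the methods state. Log2 changes are ASO_LINC minus ASO_CTRL. Alternatives were DESeq2 1.42.0, limma-voom (limma 3.58.1), other scalings, filters, dispersions and thresholds, the replicate number as a block, offsets for GC content and length (splines of 5 degrees of freedom, known for 86.1% of tested genes), and leaving out each library. The comparison was tested on simulated data.

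The 10 genes and the lists were chosen with earlier results of these data known. The lists came from general knowledge. All 10 genes are named. From the lists every gene past both thresholds is named, and for CTGF, CYR61 and ANKRD1 the 2 genes of most similar pattern. Positions and transcript lengths are from GENCODE v44 lifted to GRCh37, and promoter sequences from RefSeq (GRCh38.p14). Of the names, 13370 matched directly and 970 by an older symbol.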

Additional observations from a re-analysis of the deposited data

How the results depend on the processing

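Of 190 values of the log2 fold changes of the 10 genes under alternatives, none changed sign. The looser threshold, glmTreat and robust dispersions could not change it, as they leave the log2 fold change as it is. Of the 190, 174 stayed on their side of the thresholds, 12 lost a call (of WWTR1 and ANKRD1) and 4 gained 1 (of LATS2 and CYR61). Under 3 other scalings, 2 other filters, robust dispersions, limma-voom and DESeq2, from 917 to 1526 of all genes were called, with 3 of the 10 genes by DESeq2 and 2 by each of the others. DESeq2 called the most, 9.61% of the genes it tested. The filter of at least 10 counts in every library gave the fewest, 917 of 12742. At an adjusted p-value below 0.05, 2465 genes (16.8% of all tested) and 7 of 21 Hippo regulators were called. When edgeR tested against a log2 fold change of 0.5 (glmTreat), 384 of 14660 genes and 0 of the 10 genes were called. It called 1 of 21 Hippo regulators and 4 of 15 further targets. In the usual edgeR test 5 of the 10 genes and 32.4% of all genes had an unadjusted p-value below 0.05, and DESeq2 called 3 of the 10. With the GC content and length correction 1740 of 14660 genes and 6 of 21 Hippo regulators were called. Same-numbered libraries did not deviate together (correlations of 0.06, −0.15 and −0.18), so the numbers were not taken as pairs, and of the control libraries only replicate 1 correlated best with its own number. With the replicate block 656 of 14660 genes, 1 of the 10 genes (ANKRD1), 2 of 21 Hippo regulators and 5 of 15 further targets were called. WWTR1 (adjusted p = 0.0201), STK4 (0.0163), MYOF (0.0216) and ARHGEF17 (0.0186) lost their calls under the block. The log2 ratios are the same by construction with and without it. With each library left out, the calls ranged from 359 (without ASO_CTRL replicate 3) to 2616 (without ASO_LINC replicate 3) genes, from 0 to 4 of the 10 genes, from 1 to 7 Hippo regulators and from 3 to 8 further targets. In the same fits the difference of the log2 TEAD4 to TEAD1 ratio ranged from −0.26 to 0.12, and the log2 fold change of TEAD3 was −0.0359 without ASO_LINC replicate 3. The causes were not tested. Low counts limit ANKRD1, which had 25 reads in ASO_CTRL replicate 2, and AMOTL1, which had 9 in ASO_CTRL replicate 1.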
